A study of Rattus norvegicus with 9 samples.

Results

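Gene expression was compared between rat aortic smooth muscle cells kept for 6 hr in DMEM with 3 mM ouabain and the same cells kept for 6 hr in control DMEM. The comparison takes the 3 arrays titled Ouabain and the 3 titled Control, 6 of the 9 arrays measured. The other 3 arrays, from cells in K+-free DMEM for the same time, enter here only to show which ouabain changes were not shared. The cells were bought as a primary culture, kept under 10 passages in 10% serum and made quiescent over 24 hr in 0.2% serum. All 3 groups were rinsed in K+-free DMEM before the incubation, so that rinse was common to controls and treated cells. No genotype, animal age or strain is given in the labels, and the methods state that the arrays came from 3 independent experiments, each with its own control. Only 1 ouabain concentration and 1 time were measured.

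The Na+,K+-ATPase moves Na+ out of the cell and K+ into it at the cost of ATP, and the gradients it keeps drive many other carriers and set the resting potential of vascular smooth muscle. Ouabain, a cardiac glycoside, binds the pump from outside and stops the cycle, and a medium without K+ stalls it by another route, for want of its inward-bound ion. The pump of most rodent tissues binds ouabain weakly, which is why rodent cells are given far higher concentrations than human cells. Aortic smooth muscle cells in culture keep contractile genes at lower levels than in the vessel wall and can switch between a contractile and a proliferating state.

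Values were deposited as log2 signals for 27342 probe sets of the Affymetrix Rat Gene 1.0 ST array, and levels and changes below are on that log2 scale unless a fold is named. A gene here is 1 of the 14324 symbols that a probe set carries alone, read on the probe set with the highest mean. Levels are compared only for 1 gene between groups, since the signal of a probe set depends on its probes. Array medians lay between 6.76 and 6.80, and replicates correlated at 0.9957 or more across probe sets. The smooth muscle genes Tagln, Cnn1 and Myh11 had control means of 13.6, 12.3 and 8.92, with Des, a marker of contractile cells, near the low end of the scale at 5.63. Fibroblast markers were not low as a set: 4 of 10 lay below the array median in control cells, and the highest stood at 12.8. Whether the culture held fibroblasts was not tested. Of 12 macrophage and leukocyte markers 11 lay below the array median in control cells, and Ptprc and Itgam, which define leukocytes, stood at 5.58 and 5.42. Cd14 and Cd68, which are not restricted to leukocytes, nevertheless rose by 1.27 and 1.29, and Csf1r and Tyrobp by 0.33 each, the last pair losing their calls after quantile normalization or centring on reference genes or B2m, and Tyrobp also without control replicate 3 (0.26). In RNA from a whole culture, fewer cells of a type and less RNA per cell cannot be told apart.

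Ouabain changed genes across the cell, with more and deeper falls than rises among named genes. Cyp1a1, a monooxygenase known as a target of the aryl hydrocarbon receptor, rose 15.6-fold, and Tmem177, a mitochondrial inner membrane protein, fell 7.49-fold. A gene was said to have risen or fallen when limma gave a Benjamini-Hochberg adjusted p under 0.05 over all probe sets and the fold exceeded 1.2. By this rule 4312 probe sets rose (15.8% of those tested) and 4583 fell (16.8%). Among genes, 2509 rose (17.5%) and 3250 fell (22.7%), and these shares are the background for every count of list members below. That background is not matched for control signal, on which the share of falls depended (next paragraph). The 3 ouabain and the 3 control arrays did not overlap in 9039 genes (63.1%). Falls outnumbered rises more clearly at larger sizes: 864 genes rose and 1884 fell by more than 1.5-fold, 261 and 781 by more than 2-fold, and 71 and 167 by more than 3-fold. At the extreme the order turned, with 2 genes rising and 0 falling by more than 8-fold. The median gene changed by 0.06.

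Few falls were called among probe sets of low control signal. The signal depends on the probes too, so the bins rank signals and not expression. Split by control signal into 4 bins of 3581 genes, the lowest bin (up to 5.79) held 260 rises and 3 falls. The next bin (up to 7.63) held 673 rises and 505 falls. The third bin (up to 9.77) held 799 rises and 1636 falls (45.7% of its genes), and the highest held 777 rises and 1106 falls (30.9%). A gene near the floor of the array cannot fall measurably. The plot of change against control level shows the same shape, with few falls at signals below 6 and the deepest falls between 8 and 11.

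**Figure D1:**
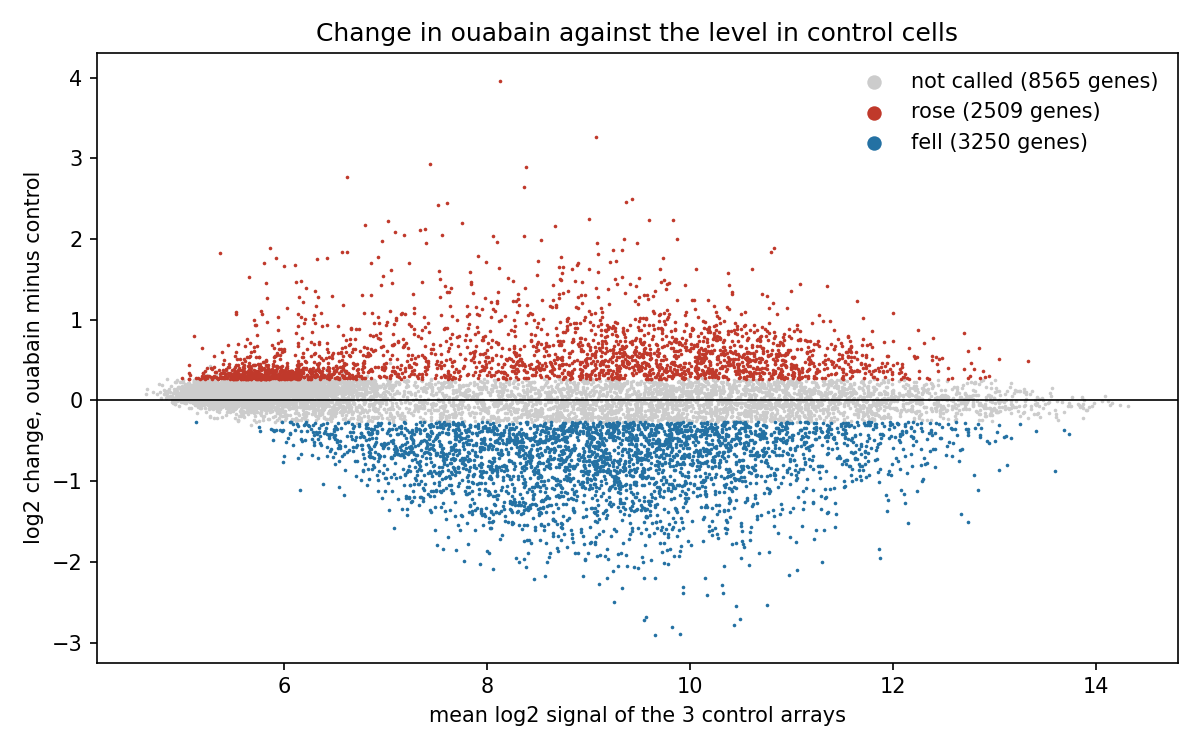
Log2 change in ouabain minus control (vertical axis) against the mean log2 signal of the 3 control arrays (horizontal axis) for 14324 genes, coloured by whether the gene rose (2509), fell (3250) or was not called. Falls are almost absent at the lowest signals, and the highest point is Cyp1a1 at 3.96.

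The balance of rises and falls depended on how the arrays were scaled. As deposited, 48.5% of the called probe sets rose and the median of all probe sets shifted by 0.07. Repeated quantile normalization gave 52.2% and centring on array medians 50.3%. Centring on reference genes lowered the median to -0.05 and the share of rises to 29.8%, and centring on B2m lowered them to -0.08 and 25.8%. Small changes are therefore relative to this choice, and the larger changes named below kept their calls under each of these scalings except where a sentence says otherwise.

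Subunits of the blocked pump itself rose in part. Atp1b1, the beta1 subunit that carries the pump to the membrane, measured 10.55, 10.66 and 10.67 in control cells, 11.50, 11.50 and 11.43 in ouabain, and 10.89, 10.81 and 10.88 in K+-free medium. The ouabain arrays lay above all others, for a rise of 0.85 (SE 0.054, limma adjusted p = 2.47e-07) that exceeded the rise of 0.24 in K+-free medium, itself not called, by 0.61 (adjusted p = 1.4e-05). Atp1b3, the beta3 subunit, read 11.90, 12.01 and 11.92 in control cells against 12.52, 12.43 and 12.52 in ouabain. Its groups did not overlap either, with a rise of 0.55 (adjusted p = 1.18e-05) against 0.25 in K+-free medium, and a difference of 0.30 between the treatments (adjusted p = 0.0029). Fxyd2, Fxyd3 and Fxyd4, small proteins that tune the pump in epithelia, rose by 0.30, 0.26 and 0.29 from signals near 6, but lost these calls after quantile normalization or centring on reference genes or B2m. Leaving out control replicate 2 also ended all 3 calls (0.26, 0.25 and 0.21), control replicate 3 that of Fxyd3 (0.25), and ouabain replicate 3 those of Fxyd3 (0.21) and Fxyd4 (0.25). In all, 5 of 11 measured pump and FXYD genes rose and 0 fell, at a median change of 0.25; 3 rose after quantile normalization, and 2 rose and 1 fell after centring on reference genes or B2m. Atp1a4, an isoform of sperm, changed by 0.25 without a call.

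In a list of Na+, K+ and Cl- carriers and the kinases and ligase that regulate them, 7 of 23 genes rose and 7 fell. The largest rise was that of Sgk1, a kinase that regulates Na+ transport, at 1.87. Slc9a3, a Na+/H+ exchanger of epithelial membranes, read 7.31, 7.16 and 7.22 in control cells and 8.91, 8.99 and 8.89 in ouabain, a rise of 1.70 (adjusted p = 8.02e-09). Its K+-free arrays were higher still, at 10.19, 10.21 and 10.02. Slc12a2, the Na+,K+,2Cl- cotransporter that loads cells with chloride, rose by 0.78, whereas Slc9a8, a Na+/H+ exchanger of the Golgi, fell by 1.45 and Slc12a4, a K+,Cl- cotransporter, fell by 0.52. Among 32 genes of calcium handling 6 rose and 8 fell, but 9 rose and 5 fell after quantile normalization and 3 rose and 9 fell after centring on reference genes or B2m. Trpc6, a cation channel opened by diacylglycerol, went from 10.14, 10.00 and 10.04 to 8.91, 8.96 and 9.04, a fall of 1.09 (adjusted p = 1.12e-06) that was deeper than in K+-free medium by 0.64 (adjusted p = 0.00024). Rcan1, an inhibitor of calcineurin, rose by 0.36 in ouabain, a call lost after centring on reference genes or B2m, whereas K+-free medium lowered it (-0.81).

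Genes of the osmotic response, which cells use to take up organic solutes and to release anions as their volume changes, rose in 8 of 13 cases and fell in 1. Slc5a3, the Na+-coupled carrier of myo-inositol, measured 10.25, 10.21 and 10.25 in control cells, 11.45, 11.24 and 11.54 in ouabain, and 10.64, 10.65 and 10.66 in K+-free medium. All ouabain arrays lay above all K+-free arrays, which lay above all controls. The rise was 1.17 (SE 0.071, adjusted p = 1.7e-07), larger than in K+-free medium by 0.76 (adjusted p = 2.1e-05). Slc6a6, the taurine carrier, rose by 0.52 and Slc38a2, a carrier of small neutral amino acids, by 0.51. Lrrc8c and Lrrc8a, subunits of the volume-regulated anion channel, rose by 0.98 and 0.43. Nfat5, the transcription factor of hypertonic stress, rose by 0.85 in ouabain and by more, 1.24, in K+-free medium (difference -0.39, adjusted p = 0.0012). Akr1b1, the aldose reductase that makes sorbitol, changed by -0.01 without a call, and Aqp1, a water channel, fell by 0.40.

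The largest rise was that of Cyp1a1, and genes of several roles followed. Cyp1a1 read 8.28, 8.07 and 8.03 in control cells and 12.04, 12.09 and 12.13 in ouabain, a rise of 3.96 (SE 0.071, adjusted p = 4.36e-10). The K+-free arrays, at a mean of 11.96, were not told apart from ouabain (difference 0.13, adjusted p = 0.26). The other measured genes of that receptor's axis moved far less: of 9 in all 4 rose and 2 fell, Ahr itself by 0.43 and Cyp1b1 by 0.49. Has2, which makes hyaluronan, rose from 7.43, 7.50 and 7.37 to 10.34, 10.51 and 10.24, and Hmox1, which degrades haem, from 9.44, 9.39 and 9.43 to 11.88, 12.02 and 11.86. Both rose further than in K+-free medium, Has2 by 0.96 (adjusted p = 3.9e-06) and Hmox1 by 1.29 (adjusted p = 7.1e-08). Chka, the choline kinase that starts phosphatidylcholine synthesis, stood at 9.82, 9.86 and 9.81 in control cells and at 12.12, 11.97 and 12.11 in ouabain, 4.71-fold higher (adjusted p = 1.17e-09). Gprc5a, an orphan G protein-coupled receptor, rose by 2.24 (adjusted p = 6.96e-09). Larger than the rises of Chka and Gprc5a were also those of the EGF receptor ligand Ereg (3.27), the cytokine Gdf15 (2.90), the peptide gene Nppc (2.77), the clock repressor Bhlhe41 (2.64), the activin antagonist Fst (2.46), the clock repressor Per2 (2.45) and the transcription factor Ets2 (2.42). The ouabain arrays of Cyp1a1, Has2, Hmox1, Chka and Gprc5a all lay above their controls.

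The deepest falls were those of genes of several roles. Tmem177 went from 9.74, 9.72 and 9.49 to 6.69, 6.55 and 6.998, a fall of 2.90 (SE 0.111, adjusted p = 7.79e-09). Tmem175, a K+ channel of the lysosome, went from 10.84, 10.75 and 10.67 to 8.15, 8.36 and 8.16, a 5.77-fold fall (adjusted p = 2.8e-09), with K+-free arrays in between at 9.32, 9.13 and 9.09. Casp4, an inflammatory caspase, read 9.59, 9.52 and 9.52 in control cells and 6.74, 6.89 and 6.84 in ouabain. In each of the 3 genes the ouabain arrays lay below both other groups. Paqr7, a membrane progestin receptor, fell by 2.39, Stx17, a SNARE that fuses autophagosomes with lysosomes, by 2.33, and Nipsnap1, a mitochondrial protein, by 2.31. Between Tmem177 and Tmem175 in depth also stood Tradd, a death receptor adaptor (-2.89), Ift70b of ciliary transport (-2.81), the RNA sensor Tlr3 (-2.71), the GTPase Rab27a (-2.68) and Pde6d, a carrier of prenylated proteins (-2.54). Zfp958, a zinc finger gene, fell by 2.78 and Tstd3, a sulfurtransferase-like gene, by 2.38. The plot of single arrays shows 6 genes that rose and 6 that fell.

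**Figure D2:**
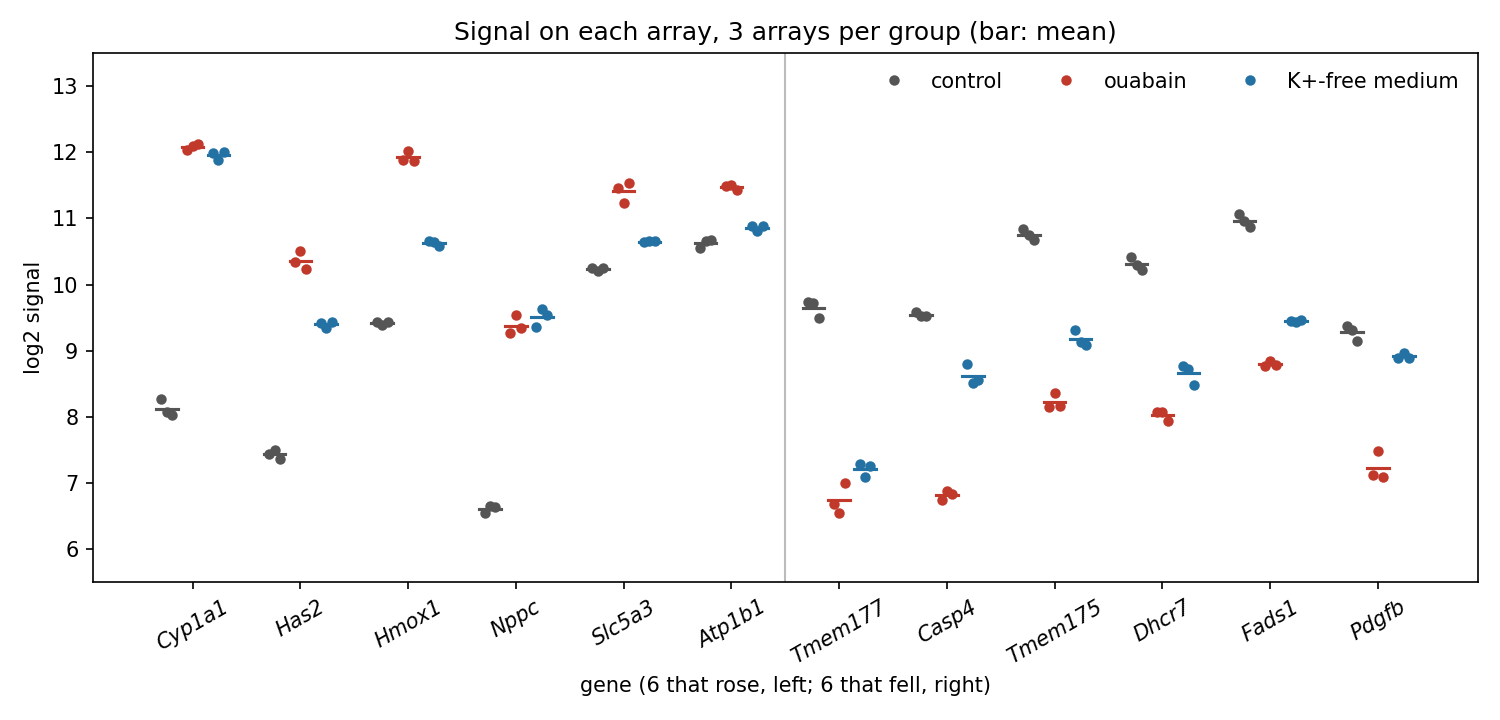
Log2 signal (vertical axis) on each of 3 arrays per group for 6 genes that rose and 6 that fell in ouabain (horizontal axis); dots are arrays and bars are group means. Ouabain arrays lie apart from control arrays in all 12 genes, and K+-free arrays lie between them for genes such as Hmox1, Slc5a3, Casp4, Tmem175 and Pdgfb.

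Immediate early genes, the transcription factors and regulators induced within minutes of a stimulus, were still raised at 6 hr: 24 of 27 rose, 1 fell, and the median change was 1.11. Fos read 6.90, 7.20 and 6.80 in control cells and 8.84, 9.05 and 8.94 in ouabain, and Nr4a1, an orphan nuclear receptor, 6.98, 7.01 and 7.06 against 9.18, 9.40 and 9.14. Egr1, a zinc finger factor, rose by only 0.57 in ouabain against 2.36 in K+-free medium. The member that fell was Klf2, a factor linked to quiescence, by 0.44. For 18 of the 27 genes the rise was larger in K+-free medium, as for Fos (difference -1.002, adjusted p = 0.00011). For Nr4a1 the treatments were not told apart (difference -0.10, adjusted p = 0.5).

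Related groups, which share some members with them and with each other, rose with them, so these counts are not independent. Of 23 targets of CREB, the factor activated by cAMP and Ca2+, 17 rose and 0 fell, at a median of 0.83. Rgs2, which shortens signalling through Gq, rose from 9.25, 9.25 and 9.13 to 11.04, 11.02 and 10.70, by 0.85 more than in K+-free medium (adjusted p = 3.5e-05). Crem, a repressor and activator of the same promoter element, read 7.34, 7.43 and 7.29 in control cells, 8.30, 8.13 and 8.23 in ouabain, and 7.68, 7.34 and 7.63 in K+-free medium. Its rise of 0.87 (adjusted p = 9.25e-06) was called in ouabain only, although quantile normalization called the K+-free rise too, and differed from K+-free medium by 0.67 (adjusted p = 0.00021). Of 18 phosphatases and Sprouty genes that restrain MAP kinases 13 rose and 0 fell, among them Dusp6 by 1.28, Spry2 by 1.17 and Dusp16 by 1.16; after quantile normalization 1 of this group fell, and 2 did after centring on reference genes or B2m. Among Kruppel-like factors 11 of 15 rose, led by Klf10 at 2.03 and Klf5 at 1.78.

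The circadian clock, a loop of activators and repressors that runs in most cells, rose in 12 of 17 genes and fell in 1, at a median of 0.55. The repressor Per2 went from 7.73, 7.49 and 7.59 to 10.01, 10.14 and 10.01, a rise of 2.45 with no overlap (adjusted p = 2.28e-09). The core activator Bmal1 changed by -0.06 and Per3 by -0.06, both without a call. The gene that fell was Bmal2 (-1.55), which fell further in K+-free medium. Cry1, another repressor, read 7.52, 7.52 and 7.42 in control cells, 8.07, 8.21 and 7.91 in ouabain, and 7.49, 7.33 and 7.27 in K+-free medium. Cry1 (0.58), the output factor Dbp (0.55) and Nfil3 (0.41) rose in ouabain only, but quantile normalization called Dbp in K+-free medium too, centring on B2m called a K+-free fall of Cry1, and Nfil3 lost its call after centring on reference genes or B2m. Tef, a factor of the same family as Dbp, rose by 1.26, more than in K+-free medium by 0.52 (adjusted p = 2.5e-05). In all, 7 of the 17 clock genes were higher in ouabain than in K+-free medium and 1 was lower, where 10.7% and 10.9% of all genes were.

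Targets of p53 rose in 15 of 24 cases and fell in 4, at a median of 0.61. Cdkn1a, which stops the cell cycle, read 11.99, 12.02 and 11.97 in control cells and 13.08, 13.18 and 12.95 in ouabain, and Bax, which permeabilises mitochondria, 9.68, 9.66 and 9.75 against 11.30, 11.41 and 11.25. The p53 ligase Mdm2 rose by 1.57 and the nuclease Aen by 1.63, all without overlap. Mdm4, the partner of Mdm2 that restrains p53, fell by 0.92 in ouabain only. For 10 members the rise or fall was larger in K+-free medium, as for Gadd45a (1.10 against 2.40), whereas Bax rose by more in ouabain (difference 0.39, adjusted p = 0.00036).

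Chaperone genes of the heat shock response rose in 12 of 24 cases and fell in 1, a milder shift at a median of 0.27; 8 rose and 2 fell after centring on reference genes, and 7 and 2 after centring on B2m. Hsf2, a heat shock transcription factor, went from 10.41, 10.31 and 10.40 to 11.55, 11.38 and 11.60, a rise of 1.14 (adjusted p = 1.53e-07). The mitochondrial chaperonin Hspd1 rose by 0.53 and the cochaperone Bag3 by 0.61, the latter in ouabain only, while Hspa8, Dnajb1 and Hsf1 changed by -0.07, -0.01 and 0.11 without a call. Hspb8, a small heat shock protein that works with Bag3, read 7.36, 7.001 and 7.32 in control cells, 7.69, 7.69 and 7.62 in ouabain, and 6.82, 6.85 and 6.68 in K+-free medium. It thus rose in ouabain (0.44) and fell in K+-free medium (-0.44). Lysosomal genes rose in 20 of 45 cases and fell in 5; centred on B2m, 11 rose and 7 fell. Subunits of the proton pump that acidifies the lysosome stood at both ends, with Atp6v1b2 going from 10.93, 10.98 and 10.95 to 12.11, 12.12 and 12.06 and Atp6v0a1 falling by 1.03, the deepest fall of the list, and the cholesterol exporter Npc1 rose by 0.91.

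Because members of these groups moved together, the promoter sequences of RefSeq were searched over the 250 bases before each gene start, on both strands, for 8 short elements. Among them were those that CREB, clock and heat shock factors are known to bind. A sequence was held for 11823 of the 14324 genes. TGACGTCA, the cAMP response element, stood in 2.27% of all promoters, in 3.14% of those that rose and 2.88% of those that fell, and in 4 of 21 CREB target promoters. CACGTG, the E-box of the clock, stood in 6.92% of all, in 8.78% of those that rose and 8.28% of those that fell, and in 3 of 15 clock promoters. GAANNTTC, a pair of inverted heat shock units, stood in 5.55% of all, in 5.16% of those that rose and 4.75% of those that fell, and in 12 of 19 chaperone promoters. The E-box stood also in 6 of 35 lysosomal promoters and in 3 of 16 promoters of the cholesterol list. Of the other elements, GCGTG stood in 36.2% of all, 41.9% of risen and 46.9% of fallen promoters. TGANNNNGC stood in 36%, 35.9% and 36.4%. TGACTCA stood in 3.43%, 3.38% and 2.77%, and in 0 of 16 immediate early promoters. CCATATTAG and GGGACTTTC were rare, at 0.118% and 0.279% of all. Stretches of 100 bases around matches in genes that rose are shown, 5′ to 3′ on the gene's strand in build GRCr8, with the match in capitals. A match describes the letters only.
Areg, EGF receptor ligand, chr14:17265679-17265778, minus strand, match 83 bases before the start: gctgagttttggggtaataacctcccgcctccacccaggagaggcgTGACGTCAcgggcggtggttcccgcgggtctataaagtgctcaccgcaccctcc
Dusp1, MAP kinase phosphatase, chr10:17184683-17184782, plus strand, match 116 bases before the start: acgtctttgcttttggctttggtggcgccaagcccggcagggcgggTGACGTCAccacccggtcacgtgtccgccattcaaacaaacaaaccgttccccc
Bhlhe41, clock repressor, chr4:180569356-180569455, minus strand, match 42 bases before the start: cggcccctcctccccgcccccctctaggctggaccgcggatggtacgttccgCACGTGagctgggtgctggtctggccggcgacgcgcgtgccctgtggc
Tef, clock output factor, chr7:115206582-115206681, plus strand, match 192 bases before the start: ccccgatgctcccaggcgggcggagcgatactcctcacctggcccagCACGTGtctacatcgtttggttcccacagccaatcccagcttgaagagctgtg
Bag3, cochaperone, chr1:192533282-192533381, plus strand, match 124 bases before the start: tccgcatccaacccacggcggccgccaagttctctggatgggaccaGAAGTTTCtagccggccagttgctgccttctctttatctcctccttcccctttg
Hspb8, small heat shock protein, chr12:45837208-45837307, plus strand, match 15 bases before the start: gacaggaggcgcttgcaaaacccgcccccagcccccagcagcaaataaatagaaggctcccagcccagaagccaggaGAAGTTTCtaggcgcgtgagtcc

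The genes with the printed cAMP response elements rose in each ouabain array. Areg read 6.76, 6.93 and 6.87 in control cells and 8.49, 8.69 and 8.50 in ouabain, and Dusp1, already high in control cells, 12.69, 12.71 and 12.68 against 13.52, 13.69 and 13.37. The E-box genes Bhlhe41 and Tef stood at 8.29, 8.30 and 8.49 against 11.01, 10.87 and 11.12, and at 8.26, 8.35 and 8.30 against 9.53, 9.61 and 9.55. No group overlapped with its control. Bag3 rose from 10.21, 10.22 and 10.17 to 10.77, 10.97 and 10.69.

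Falling groups were broader. Genes of ciliary transport and of the ciliary gate, which build and guard the primary cilium, fell in 36 of 46 cases and rose in 1, at a median of -0.64. K+-free medium lowered 37 of them, at a median of -0.85, and 7 changes were larger there against 3 in ouabain. Ift88, a core subunit of the transport train, went from 8.15, 7.92 and 7.90 to 6.10, 6.13 and 6.14, a 3.65-fold fall (adjusted p = 6.78e-09). Ttc8, of the BBSome coat, went from 8.64, 8.56 and 8.64 to 6.75, 6.77 and 6.64. The groups lay far apart in both. Ift52, Bbs1, Ift22 and Mks1 fell by 1.77, 1.60, 1.53 and 1.44. Ahi1, of the ciliary gate, rose by 0.62, and Kif3a, a motor of the same train, changed by 0.14 without a call, except after quantile normalization.

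Most of the measured DNA repair genes fell. Of 38 genes for double-strand breaks and crosslinks 28 fell and 5 rose (median -0.60), and of 35 genes for base excision, nucleotide excision and mismatch repair 23 fell and 4 rose (median -0.55); centred on B2m, 3 genes of the first list and 2 of the second rose. Parp2, a polymerase of ADP-ribose at strand breaks, went from 8.99, 8.97 and 8.91 to 6.91, 7.05 and 6.97, and Parp1 from 9.87, 9.85 and 9.76 to 8.33, 8.38 and 8.37. Rad52, of homologous recombination, fell by 1.47, and Xrcc6, the Ku70 end-binding protein, by 1.24, less than in K+-free medium (difference 0.63, adjusted p = 8.4e-05). No ouabain array of these genes reached its controls. Among those that rose were Bard1 at 0.71, the checkpoint kinase Chek1 at 0.57 and Nbn at 0.49. Brca1, the partner of Bard1, rose in ouabain (0.34) and fell in K+-free medium (-0.38); the rise lost its call after centring on reference genes or B2m, and the fall after quantile normalization.

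Most mitochondrial ribosomal protein genes fell while cytosolic ribosomal genes stayed near their control levels. Of 67 mitochondrial ribosomal protein genes 46 fell and 4 rose (2 after centring on reference genes or B2m), at a median of -0.50, whereas of 68 cytosolic ones 0 fell and 1 rose, at a median of -0.01. The 1 that rose was Rpl23, by 0.49, a call lost after centring on reference genes or B2m; these scalings made 4 cytosolic genes fall. It was lost as well without control replicate 1 (0.42), ouabain replicate 1 (0.43) or ouabain replicate 3 (0.38). Mrpl30 went from 8.75, 8.67 and 8.68 to 6.86, 6.78 and 6.85, and Mrpl40 from 8.98, 8.89 and 8.99 to 7.03, 7.28 and 7.21. Their groups did not overlap. Respiratory chain and ATP synthase subunits moved less, 22 of 70 falling and 4 rising (median -0.12), with Ndufs3 of complex I at -1.11. Centring on reference genes gave 31 falls and 0 rises, and centring on B2m 35 and 0. As deposited 31.4% of these subunits fell, at a median control signal of 10.8, against 30.9% of all genes in the highest signal bin. Cytosolic aminoacyl-tRNA synthetases, which load amino acids onto tRNA, fell in 13 of 19 cases with 0 rising, Lars1 from 11.39, 11.32 and 11.26 to 10.25, 10.24 and 10.20.

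Genes of lipid synthesis fell without a rise in either list. Of 20 genes of cholesterol synthesis and uptake 15 fell (median -0.66), and of 13 genes of fatty acid synthesis and desaturation 8 fell (median -0.85). Dhcr7, the last enzyme of cholesterol synthesis, read 10.42, 10.29 and 10.23 in control cells, 8.08, 8.07 and 7.94 in ouabain, and 8.78, 8.72 and 8.49 in K+-free medium. The fall of 2.28 was deeper than in K+-free medium by 0.63 (adjusted p = 0.00023). Fads1, the delta-5 desaturase, went from 11.07, 10.96 and 10.87 to 8.77, 8.85 and 8.79 and was likewise lower than in K+-free medium, by 0.64 (adjusted p = 1.6e-05). The lists as a whole did not fall further in ouabain. In the cholesterol list 3 changes were larger in K+-free medium and 1 in ouabain, and in the fatty acid list 3 and 2. K+-free medium lowered 14 of the 20 and 11 of the 13 genes. Acaca, the first committed enzyme of fatty acid synthesis, fell by 1.05 and Scd by 1.18. Insig1 and Srebf2, which control the pathway, changed by -0.24 and -0.17 without a call, but both were called as falls after centring on reference genes or B2m, and Insig1 after quantile normalization too.

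Contractile genes, which mark smooth muscle, fell in 14 of 19 cases and rose in 0, at a median of -0.33. Lmod1, a nucleator of actin filaments, went from 9.63, 9.77 and 9.74 to 8.06, 8.13 and 8.12, by far the deepest fall of the list at 1.61 (adjusted p = 6.88e-09). Myh11, the smooth muscle myosin heavy chain, went from 8.999, 8.84 and 8.92 to 8.22, 8.23 and 8.23. The abundant Tagln changed by -0.21 and Myl9 by 0.03, neither called, though Tagln became a fall after centring on reference genes or B2m. Focal adhesion genes fell in 11 of 26 cases and rose in 3 (1 after centring on reference genes or B2m), with Tln1, the talin that couples integrins to actin, at -1.37.

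Cell cycle genes were counted by phase. Of 31 mitosis genes 19 fell and 0 rose (median -0.41), led by Cdc25b at -1.05, Kif22 at -1.04 and Ccnb2 at -0.96, and 14 of them were higher in ouabain than in K+-free medium. Genes of the G1-S step and of DNA replication were mixed, 15 of 51 rising and 14 falling, but 10 rose and 19 fell after centring on reference genes or B2m. Pcna, the sliding clamp, rose from 11.24, 11.29 and 11.27 to 12.34, 12.23 and 12.40, and Cdc6, a licensing factor, from 7.96, 7.78 and 7.84 to 9.21, 9.34 and 9.03. Orc3 fell by 1.92 and Orc5 by 1.43, whereas Orc1, another subunit of the origin complex, rose by 0.65 in ouabain only. Mcm2 (0.50) and E2f1 (0.43) also rose in ouabain only, E2f1 leaving this class after quantile normalization or centring on reference genes. In this list 20 genes were higher in ouabain than in K+-free medium and 7 lower.

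Genes of energy sensing, transcription and innate sensing fell in part. In the AMPK and mTOR list 15 of 25 genes fell and 4 rose (1 after centring on reference genes or B2m), at a median of -0.43. Mtor, the growth kinase itself, went from 9.72, 9.69 and 9.56 to 8.38, 8.33 and 8.30, a fall of 1.32 that was deeper than in K+-free medium by 0.67 (adjusted p = 1.1e-05). Mlst8, its partner, fell by 1.48, while Tsc1, which restrains it, rose by 0.47. Across this list, 6 changes were larger in K+-free medium and 3 in ouabain, and K+-free medium lowered 15 genes too. Of 47 genes of RNA polymerase II, its general factors and Mediator 21 fell and 9 rose (5 after centring on reference genes or B2m), Gtf2a1 by the most, from 10.68, 10.68 and 10.66 to 8.73, 8.73 and 8.87. Zinc finger genes named only by number fell in 65 of 147 cases and rose in 33. Falls were 44.2% of this list, at a median control signal of 8.49, and 44.7% of the polymerase II list, at 9.83. Of all genes in the third and highest signal bins, which meet at 9.77, 45.7% and 30.9% fell. Among innate sensors, death adaptors and inflammatory caspases 16 of 30 fell and 7 rose: the inflammasome adaptor Pycard fell by 1.11 and Irf3 by 0.77, while Tbk1 rose by 0.97, Tlr4 by 0.76 and Myd88 by 0.44.

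Several further lists were counted. Of 29 targets of HIF-1, the oxygen-sensing factor, 11 rose (37.9%) and 5 fell, with Hk2 at 1.65 and Pfkfb4 at -1.51 as the extremes; centred on B2m, 10 rose and 9 fell. NRF2 antioxidant genes rose in 7 and fell in 7 of 26 cases. Collagen and elastic fibre genes rose in 2 and fell in 1 of 27, or in 1 and 5 after centring on B2m. Potassium channel genes rose in 17 and fell in 9 of 83 as deposited but rose in 2 and fell in 11 after centring on B2m. Olfactory receptors, which these cells are not known to use, rose in 29 and fell in 3 of 1101, and in 6 and 32 after that centring. Of these genes 1077 lay below the array median. The largest rises of the list were those of Or2y1g by 2.20 (limma adjusted p = 1.46e-09) and Or2y1h by 1.28. Both were larger than in K+-free medium and kept their calls under each scaling. Markers of Schwann cells and neurons and of cardiac and skeletal muscle had 0 rises and 0 falls among 8 and 10 genes by the same limma rule, although 2 Schwann cell and neuronal markers fell after centring on B2m. At an unadjusted p under 0.05 with no fold limit, 1 of each list was higher and 1 lower. Of the lists above with no call in 1 direction, that looser limit was met by 1 pump or FXYD gene, 0 CREB targets, 2 of the phosphatases and Sprouty genes and 4 cytosolic ribosomal genes on the lower side, and on the higher side by 2 tRNA synthetases, 1 cholesterol gene, 2 fatty acid genes, 2 contractile genes and 1 mitosis gene. Of 12 reference genes 3 rose: Tfrc, the transferrin receptor, by 0.60, and Tbp by 0.36 and Hprt1 by 0.27, the last pair losing the call after centring on reference genes or B2m, and Hprt1 also after quantile normalization (0.22) and without control replicate 3 (0.20) or ouabain replicate 3 (0.23).

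**Figure D3:**
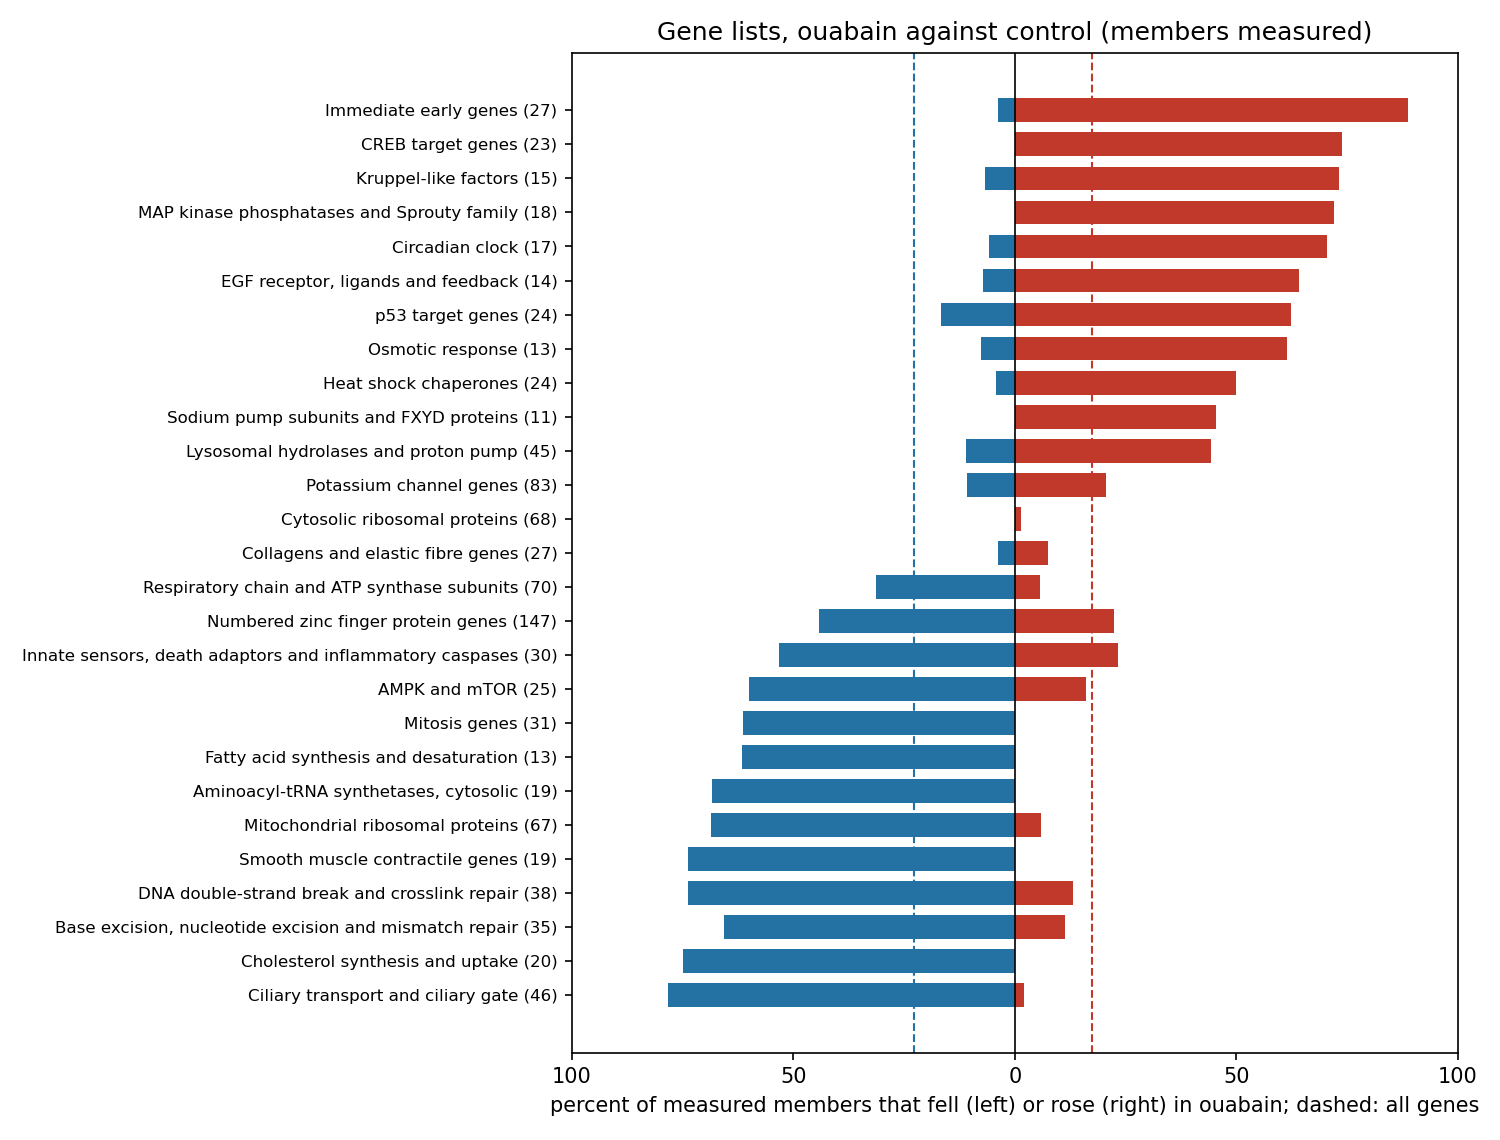
Percent of each list's measured members (number in brackets) that fell (left, blue) or rose (right, red) in ouabain against control. Dashed lines mark the 22.7% and 17.5% of all genes that did, whatever their control signal. Immediate early genes lie farthest to the right with 24 of 27 risen and ciliary genes farthest to the left with 36 of 46 fallen, while cytosolic ribosomal proteins and collagens show few calls.

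Genes of vasoactive signalling changed at both ends of 1 pathway. The gene of C-type natriuretic peptide, Nppc, went up from 6.55, 6.66 and 6.63 to 9.26, 9.54 and 9.34 (6.8-fold, adjusted p = 2.28e-09). Npr2, its receptor, went from 9.61, 9.59 and 9.49 to 7.94, 8.04 and 7.95, a 3-fold fall (adjusted p = 6.78e-09). The ouabain arrays lay clear of control in both, above for the peptide and below for the receptor. Avpr1a, the vasopressin receptor of smooth muscle, rose from 8.86, 8.98 and 8.94 to 10.21, 10.31 and 10.17, by 0.77 more than in K+-free medium (adjusted p = 5.1e-06). Agtr1a, the angiotensin II receptor, fell from 10.95, 11.01 and 10.99 to 10.18, 10.24 and 10.29, while the K+-free arrays stood at 11.15, 11.10 and 11.14. The fall of 0.75 was called in ouabain only (difference from K+-free medium -0.90, adjusted p = 5.5e-07). In the whole list 7 of 29 rose and 5 fell (3 after quantile normalization).

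Which ouabain changes were not shared with K+-free medium was asked with 3 comparisons from 1 fit. K+-free medium raised 2547 genes (17.8%) and lowered 3431 (24.0%) against the same control arrays, and ouabain was higher than K+-free medium in 1530 genes (10.7%) and lower in 1562 (10.9%). Of the genes called in ouabain, 3046 (52.9%) were called in the same direction in both treatments with no called difference between them. For 816 (14.2%) the change was larger in K+-free medium, for 596 (10.3%) larger in ouabain, and for 112 (1.94%) opposite. A further 569 (9.88%) changed in ouabain only: called there, not called in K+-free medium, and different from K+-free medium in the direction of the ouabain change. Of these 304 rose (2.12% of genes) and 265 fell (1.85%). The remaining 620 were called in ouabain and not in K+-free medium without a called difference, so nothing sets them apart.

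Changes in ouabain only were modest, with a median size of 0.47. They exceeded 1.5-fold in 154 genes and 2-fold in 13. In 160 of the 569 the K+-free change had an adjusted p under 0.05 with a fold of 1.2 or less, so a small shared change was present, and 353 moved in the same direction in K+-free medium. Genes whose change was larger in ouabain were mostly falls, 431 of 596, at a median size of 1.09. Over 17 other settings of scaling, fit and left-out arrays, 167 of the 569 kept their class in each.

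The largest rise in ouabain only was that of Rpp25, a subunit of the ribonucleases that trim tRNA and ribosomal RNA. It read 8.45, 8.33 and 8.31 in control cells, 9.69, 9.96 and 9.62 in ouabain, and 8.31, 8.36 and 8.42 in K+-free medium. The control and K+-free arrays covered the same range, and the ouabain arrays stood 2.62-fold higher (SE 0.083 on the log2 scale, adjusted p = 1.56e-07). Some genes of tRNA modification in this class moved in both directions. Adat3, of the wobble deaminase, rose by 1.09, Yrdc, which makes threonylcarbamoyl-adenosine, by 0.94, and Trdmt1, a tRNA methyltransferase, fell by 0.94. No list of such genes was counted. Adat3 lost the class after quantile normalization and Trdmt1 after centring on reference genes or B2m.

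Slc40a1, ferroportin, the only known exporter of iron from cells, read 9.79, 9.78 and 9.71 in control cells, 11.08, 11.16 and 11.18 in ouabain, and 9.87, 9.90 and 9.83 in K+-free medium. It rose by 1.38 (SE 0.052, adjusted p = 7.39e-09), with the K+-free arrays within 0.2 of the controls, and differed between treatments by 1.27 (adjusted p = 4.7e-08). Slc4a11, a membrane transporter of the bicarbonate carrier family, read 7.36, 7.29 and 7.19 in control cells and 8.34, 8.46 and 8.48 in ouabain (difference from K+-free medium 1.02, adjusted p = 1.3e-06). Fzd8, a Wnt receptor, rose by 1.03, the ubiquitin ligase adaptor Klhl21 by 0.99, the phosphatase Ptpn3 by 0.89 and Neto2, an auxiliary subunit of kainate receptors, by 0.91. Of these, Fzd8 and Klhl21 kept the class in all 17 settings and Neto2 and Ptpn3 lost it after quantile normalization only. Mia, a secreted protein of cartilage and melanoma cells, rose by 0.92 and kept it in 12, with a K+-free rise called after centring on array medians.

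Among falls in ouabain only, Rassf4, a Ras-association protein, went from 10.19, 10.14 and 10.14 in control cells to 8.78, 8.9997 and 8.80, with K+-free arrays at 10.22, 10.17 and 10.10. The fall of 1.30 (SE 0.066, adjusted p = 4.82e-08) was as large against K+-free medium (-1.30, adjusted p = 2.3e-07). Cd200, a surface glycoprotein that restrains myeloid cells, went from 12.10, 12.11 and 12.13 to 10.82, 10.91 and 10.82, against 11.97, 11.97 and 11.94 in K+-free medium. Il10rb, a receptor chain for interleukin-10 and its relatives, went from 11.45, 11.45 and 11.36 to 10.14, 10.18 and 10.12. The ouabain arrays of all 3 genes lay below both other groups. Cd200 left the class after centring on B2m and Il10rb after quantile normalization or centring on reference genes or B2m, since their small K+-free falls were then called too.

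Matrix proteases of the ADAMTS and MMP families fell in ouabain only in 4 of 28 cases. Adamts15, an aggrecanase, went from 8.42, 8.33 and 8.46 to 7.18, 6.95 and 7.11 (fall of 1.33, adjusted p = 9.32e-08), against 8.27, 8.13 and 8.07 in K+-free medium, where centring on reference genes or B2m called a fall as well. Adamts5, the main aggrecanase of cartilage, fell by 0.69, Mmp11 by 0.68 and Adamts2, which trims procollagen, by 0.35. Of these, Mmp11 was called in K+-free medium too after centring on reference genes or B2m, and Adamts5 after centring on B2m. In the other direction Mmp28 rose by 2.08 and Adamts9 by 1.08, each also called in K+-free medium. Further falls in ouabain only were those of Gtf2e1, a subunit of the general factor TFIIE, by 1.14, of Sqor, which oxidises sulfide in mitochondria, by 1.00, of the mannosyltransferase Alg12 by 0.94 and of the growth factor Fgf16 by 0.94; centring on B2m called all 4 in K+-free medium too, as did centring on reference genes for all but Sqor. Potassium channel genes Kcnq5, Kcnj8, Kcnip3 and Kcnh2 fell by 0.62, 0.60, 0.52 and 0.46 in ouabain only, but Kcnq5 left this class after centring on B2m and Kcnip3 under each scaling except array medians.

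Opposite changes were fewer. Kcne4, an inhibitory subunit of voltage-gated K+ channels, read 7.41, 6.94 and 7.20 in control cells, 8.40, 8.14 and 8.24 in ouabain, and 6.85, 6.46 and 6.96 in K+-free medium. Its K+-free arrays overlapped the controls by 1 value, and its fall of 0.43 there lost the call after quantile normalization. Kcne4 also left the opposite class without control replicate 1, control replicate 3 or K+-free replicate 2. Yars2, the mitochondrial tyrosyl-tRNA synthetase, went from 8.28, 8.26 and 8.27 up to 9.21, 9.21 and 9.16 in ouabain and down to 8.06, 7.84 and 7.88 in K+-free medium. Tle1, a corepressor, rose by 0.63 against -0.38, and Tmem199 and Wipf3 by 0.63 and 0.57 against -0.47 and -0.52. The K+-free falls of Yars2 and Tle1 lost their calls after quantile normalization.

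Falls in ouabain that were rises in K+-free medium included regulators of cell death and adhesion. Cflar, which blocks caspase-8 at death receptors, read 9.94, 9.91 and 9.97 in control cells, 8.78, 8.70 and 8.71 in ouabain, and 10.62, 10.51 and 10.65 in K+-free medium. All 3 groups stood apart, and the treatments differed by 1.86 in size (ouabain minus K+-free medium -1.86, adjusted p = 3.4e-09). St3gal3, a sialyltransferase, read 8.82, 8.66 and 8.89, then 7.47, 7.72 and 7.53 in ouabain and 9.44, 9.36 and 9.47 in K+-free medium. Vcam1, an adhesion molecule for leukocytes, read 7.32, 6.995 and 7.28 in control cells and 6.04, 6.12 and 5.79 in ouabain, near the low end of the scale, while K+-free arrays stood at 11.37, 11.31 and 11.28. Bmp6 read 8.27, 8.12 and 8.03 in control cells, 6.45, 6.31 and 6.64 in ouabain, and 10.35, 10.31 and 10.38 in K+-free medium. Samd9l, an interferon-induced gene, fell by 1.24 against a rise of 0.38 that was not called after centring on B2m.

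**Figure D4:**
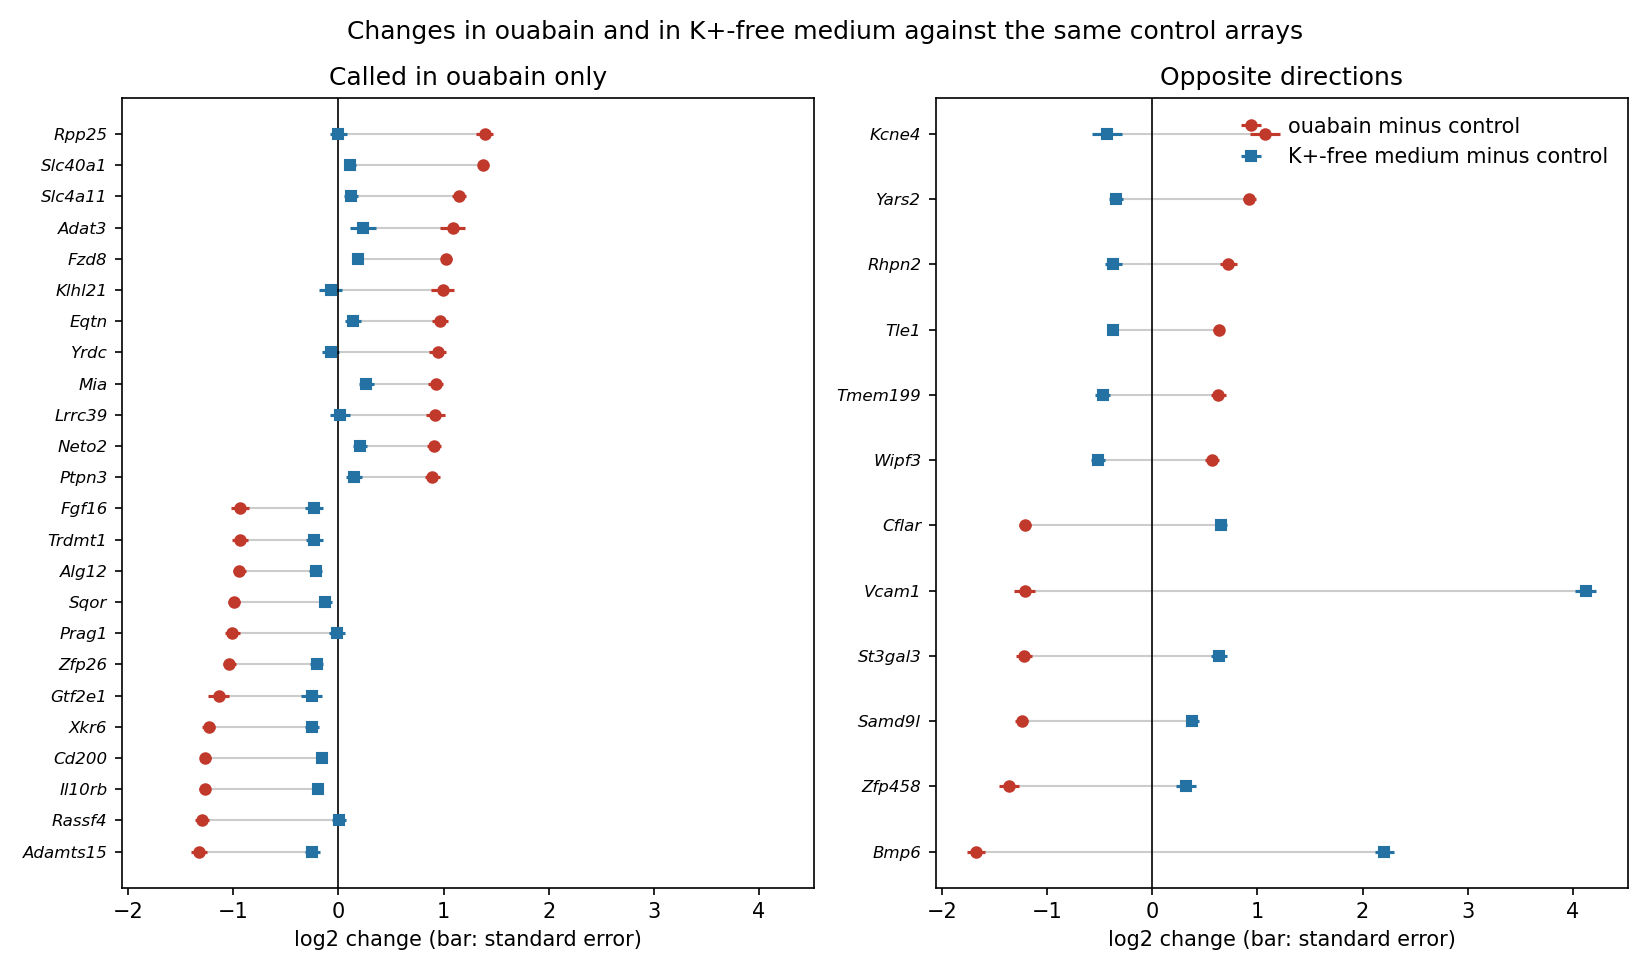
Log2 change (horizontal axis; bars are standard errors, 3 arrays per group) in ouabain (red circles) and K+-free medium (blue squares) against the same control arrays, for 24 genes changed in ouabain only (left) and 12 changed in opposite directions (right). The blue squares of the left part lie within 0.3 of 0, and the widest gaps of the right part are those of Vcam1 and Bmp6.

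Some changes ran the same way in both treatments but went further in ouabain. Hoxa5, a homeobox factor, read 9.39, 9.57 and 9.47 in control cells, 11.37, 11.47 and 11.43 in ouabain, and 10.13, 10.12 and 10.14 in K+-free medium. Pgf, a ligand of the VEGF receptor Flt1, rose from 8.07, 8.03 and 7.86 to 9.75, 9.83 and 9.51, against 8.69, 8.60 and 8.47. The ouabain arrays lay highest in both genes. Aspn, a small leucine-rich proteoglycan, rose by 1.65 against 0.28, although centring on reference genes or B2m moved it out of this class. In the other direction Pdgfb, the B chain of platelet-derived growth factor, went from 9.38, 9.32 and 9.15 to 7.12, 7.48 and 7.09, with K+-free arrays at 8.89, 8.97 and 8.89. That fall of 2.05 (SE 0.099, adjusted p = 3.4e-08) was deeper than in K+-free medium by 1.69 (adjusted p = 7.5e-07). Ankrd1, a target of YAP, went from 9.79, 9.74 and 9.75 to 8.11, 8.34 and 8.06, against 9.16, 9.16 and 9.18. Xpnpep1, a peptidase, fell by 2.04 against 1.00, and Ddx42, an RNA helicase, by 1.47 against 0.46.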

How the data were processed

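The deposited log2 signals were made by the authors with RMA. Partek is named beside it in the labels, and the methods mention MAS5 and GeneSpring elsewhere; software versions were not given. The values had 0 gaps and were used as deposited. Groups came from the array titles. Probe sets were named from the platform annotation: 15097 carry 1 symbol, 323 several and 11922 none, and 15067 of the 15097 matched RefSeq. For 499 symbols with several probe sets the brightest was taken.

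limma 3.58.1 in R 4.3.3 fitted 1 mean per group over all 9 arrays (prior 4.59 degrees of freedom, prior SD 0.0815). With 3 arrays per group an exact permutation test cannot go below p = 0.1. On simulated data of this comparison with 27342 probe sets, the fit found 58 of the 63 planted 1.5-fold changes, 80 of the 82 at 2-fold and 53 of the 55 at 4-fold, and made 9 false calls. The simulated noise was independent between probe sets, arrays had no scaling differences, and far fewer changes were planted than were called in the data. The 9 therefore do not estimate false calls in the data. The members, gene lists and classes were chosen with earlier results of these data known, and no list was tested as a set. Some genes stand in more than 1 list, so counts of different lists are not independent. Named genes were the largest changes of the comparison, of each class and of each list, and all pump and reference genes. Uncharacterised loci, microRNAs and olfactory receptors were skipped when the largest changes of the comparison and of each class were picked. Some further list members were chosen after their values were seen. A gene at the array floor has no measurable fall, and the number of arrays limits the precision. Alternatives comprised 4 scalings, filters, moderation, a replicate block, fold limits, the methods' t-test (unadjusted added after seeing the data) and leaving out each array. Promoters came from RefSeq (GRCr8). Plots used matplotlib 3.10.9 in Python 3.11.15.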

Additional observations from a re-analysis of the deposited data

How the results depend on the processing

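The number of probe sets called in ouabain, 8895, stayed between 7719 and 9701 under the other scalings, moderation, 6 arrays alone, the methods' t-test and each left-out array, and came to 5965 with 1-symbol probe sets only (fewer tested) and to 12224 without a fold limit. The number of rises was the least stable: 2448 centred on reference genes, 2166 centred on B2m, 2620 with 1-symbol probe sets only and 6873 without a fold limit. A limit of 1.5-fold left 3924 calls, 1277 rises and 2647 falls. Leaving out each array in turn gave 8435 to 9701 calls (9701 without ouabain replicate 2), 3940 to 4883 rises and 4495 to 4818 falls. By class it gave 541 to 596 genes in ouabain only, 107 to 116 opposite, 546 to 635 larger in ouabain, 787 to 825 larger in K+-free medium, 2943 to 3118 not told apart and 561 to 864 without a called difference. The cause of these shifts was not tested. Of 437 named genes none reversed under any setting run; 16 lost their call centred on B2m, 13 on reference genes and 12 after quantile normalization. The replicate block gave 8978 calls and changed no call among the named genes. Same-numbered ouabain and control arrays deviated together with correlations of -0.0464, -0.0336 and 0.134, against -0.157 to 0.163 for differently numbered ones. For K+-free and control arrays the values were 0.145, 0.0409 and 0.0868 against -0.098 to 0.00437. For ouabain and K+-free arrays they were -0.0057, 0.231 and 0.309 against -0.284 to 0.0362. The pairing that the block assumes was thus not seen between ouabain and control, while same numbers ran higher in most of the other pairs. Whether the numbers mark experiments was not settled. The methods' t-test called 7719 probe sets after Benjamini-Hochberg adjustment and 8546 unadjusted, the latter setting chosen after seeing the data. Signals near 6 limit what can be said of dim genes, FXYD and potassium channel genes included.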

Other observations

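Genes of Wnt signalling, through which secreted Wnt proteins act on Frizzled receptors and beta-catenin, are described here from a list drawn up after their values were seen, so no count of it supports anything. Of 61 measured genes 24 rose and 2 fell in ouabain, at a median change of 0.20. Lgr5, a receptor for R-spondins, read 7.07, 7.27 and 7.18 in control cells, 9.30, 9.22 and 9.14 in ouabain, and 8.98, 8.90 and 8.84 in K+-free medium. The ouabain arrays were the highest, and the rise of 2.04 (limma adjusted p = 3.62e-09) exceeded that in K+-free medium by 0.31 (adjusted p = 0.0064). Fzd8 read 10.33, 10.21 and 10.30 in control cells, 11.38, 11.26 and 11.28 in ouabain, and 10.47, 10.46 and 10.44 in K+-free medium. In ouabain only, 8 genes of the list rose and 0 fell: Fzd8, Fzd4 (0.75), the feedback inhibitor Axin2 (0.69), the secreted antagonist Sfrp4 (0.85), the ligand Wnt2b (0.59), Rspo3 (0.55), Tle4 (0.54) and Dvl1 (0.35). Axin2, Sfrp4 and Tle4 were called in K+-free medium too after quantile normalization, as were Axin2 and Wnt2b after centring on array medians, and Dvl1 lost its call after centring on reference genes or B2m. Beta-catenin itself, Ctnnb1, changed by 0.03 without a call. The falls were those of Porcn, which acylates Wnt proteins, by 0.61, and Tcf7, a transcription factor of the pathway, by 0.34, the latter not called after quantile normalization.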
